A study of Mus musculus with 2 samples.

Results

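Skin that had been exposed to ultraviolet radiation (UVR) and treated with 0.1% retinol was compared with untreated normal skin, both from female SKH-1 mice of 10 to 12 weeks, a hairless strain in which the action of light on skin is often studied. Transcripts were captured on Visium arrays, where each barcoded spot covers a small patch of a tissue section that can hold several cells. Spots with at least 200 unique molecular identifiers (UMIs, each counted as 1 captured transcript) were kept, which left 544 of 787 spots over tissue in the retinol section and 339 of 465 in the control section, 883 of the 2174 such spots in all 4 sections. The other 2 sections came from UVR-exposed skin without treatment and from UVR-exposed skin given 0.03% of the retinoid 9-cis HPR, and they are used below only to show where a level lies. Each group had 1 section, and the retinol and control sections lay on different capture areas, so treatment, animal and capture area cannot be told apart. The comparison also holds the radiation and the retinol together: retinol alone on unexposed skin was not among the groups. The dose of UVR, the time of harvest and the number of animals were not given in the sources used here. No test was possible. Every interval below is an exact 95% Clopper-Pearson interval from the split of a gene's UMIs between the sections, and it covers counting error only. The sections were told apart by their upper or lower place in the image; the spot grid runs the other way, and reading it instead would exchange the sections of each area, so that the stress keratins and small proline-rich genes would be lower and not higher here, with values given in the closing part.

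The epidermis renews itself from a basal layer marked by the keratins Krt5 and Krt14. Its cells move outwards, switch to suprabasal keratins such as Krt1 and Krt10, and end as cornified cells whose envelope is built from loricrin (Lor), small proline-rich proteins and late cornified envelope proteins that transglutaminases link together. Wounded, irradiated or hyperproliferative epidermis instead makes the stress keratins Krt6, Krt16 and Krt17 and more of the small proline-rich proteins. Retinol is converted in keratinocytes to retinoic acid, which binds the nuclear receptors RAR and RXR and is known to thicken the living epidermis and to hold back terminal keratins and loricrin.

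Spots were sorted into 4 classes. Epidermal spots had at least 1000 UMIs with at least 3% of them from Krt5, Krt14 and Lor; they numbered 176 in the retinol section (1085484 UMIs, median 5517.5 per spot) and 72 in the control section (168438 UMIs, median 1869). They made up 32.4% of the kept retinol spots (95% interval 28.4% to 36.5%) and 21.2% of the control spots (17.0% to 26.0%), and 76.7% against 51.7% of the UMIs. Another 41 retinol and 98 control spots passed the keratin share with fewer UMIs; with depth left aside, 39.9% of retinol spots and 50.1% of control spots were keratin-rich. Muscle spots numbered 133 and 25, and 194 and 144 spots remained. All 8 of 8 keratinocyte markers were measured in the epidermal spots, and markers of other cells were found at differing levels: the 12 macrophage and dendritic markers summed to 23.0 CPM (UMIs scaled to a common total for each section and spot class) in the retinol section and 65.3 CPM in the control section, and the 7 T cell markers to 5.53 and 5.94 CPM. Fibroblast markers summed to 438 and 374 CPM, and B and plasma cell markers to 90.3 and 671 CPM. Skeletal muscle markers stood at 240 CPM in retinol and 1288 CPM in control epidermal spots, all 6 measured members being lower in the retinol section. The 6 sebaceous gland markers on the panel summed to 54.4 and 362 CPM. Their part in the results below was not tested.

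The keratin rule took different slices of the epidermis from the 2 sections. In the retinol section 135 of the 176 epidermal spots were basal-rich, with more Krt5 and Krt14 than Lor, and held 908633 UMIs; 41 were cornified-rich, with 176851 UMIs. In the control section only 12 of 72 were basal-rich (26947 UMIs) and 60 were cornified-rich (141491 UMIs). The keratin share of an epidermal spot had a median of 4.82% in the retinol section and 9.80% in the control section. Just inside the rule, at 3% to 4%, lay 43 retinol spots and 1 control spot, and just outside it, at 2% to 3%, 22 and 5. Genes of the outer layers therefore weigh more in the control sum, and ratios within basal-rich and within cornified-rich spots are given beside many of the main ones, in particular where a 2-fold difference was lost there. A level in CPM cannot tell fewer cells of a type from less RNA per cell.

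**Figure D1:**
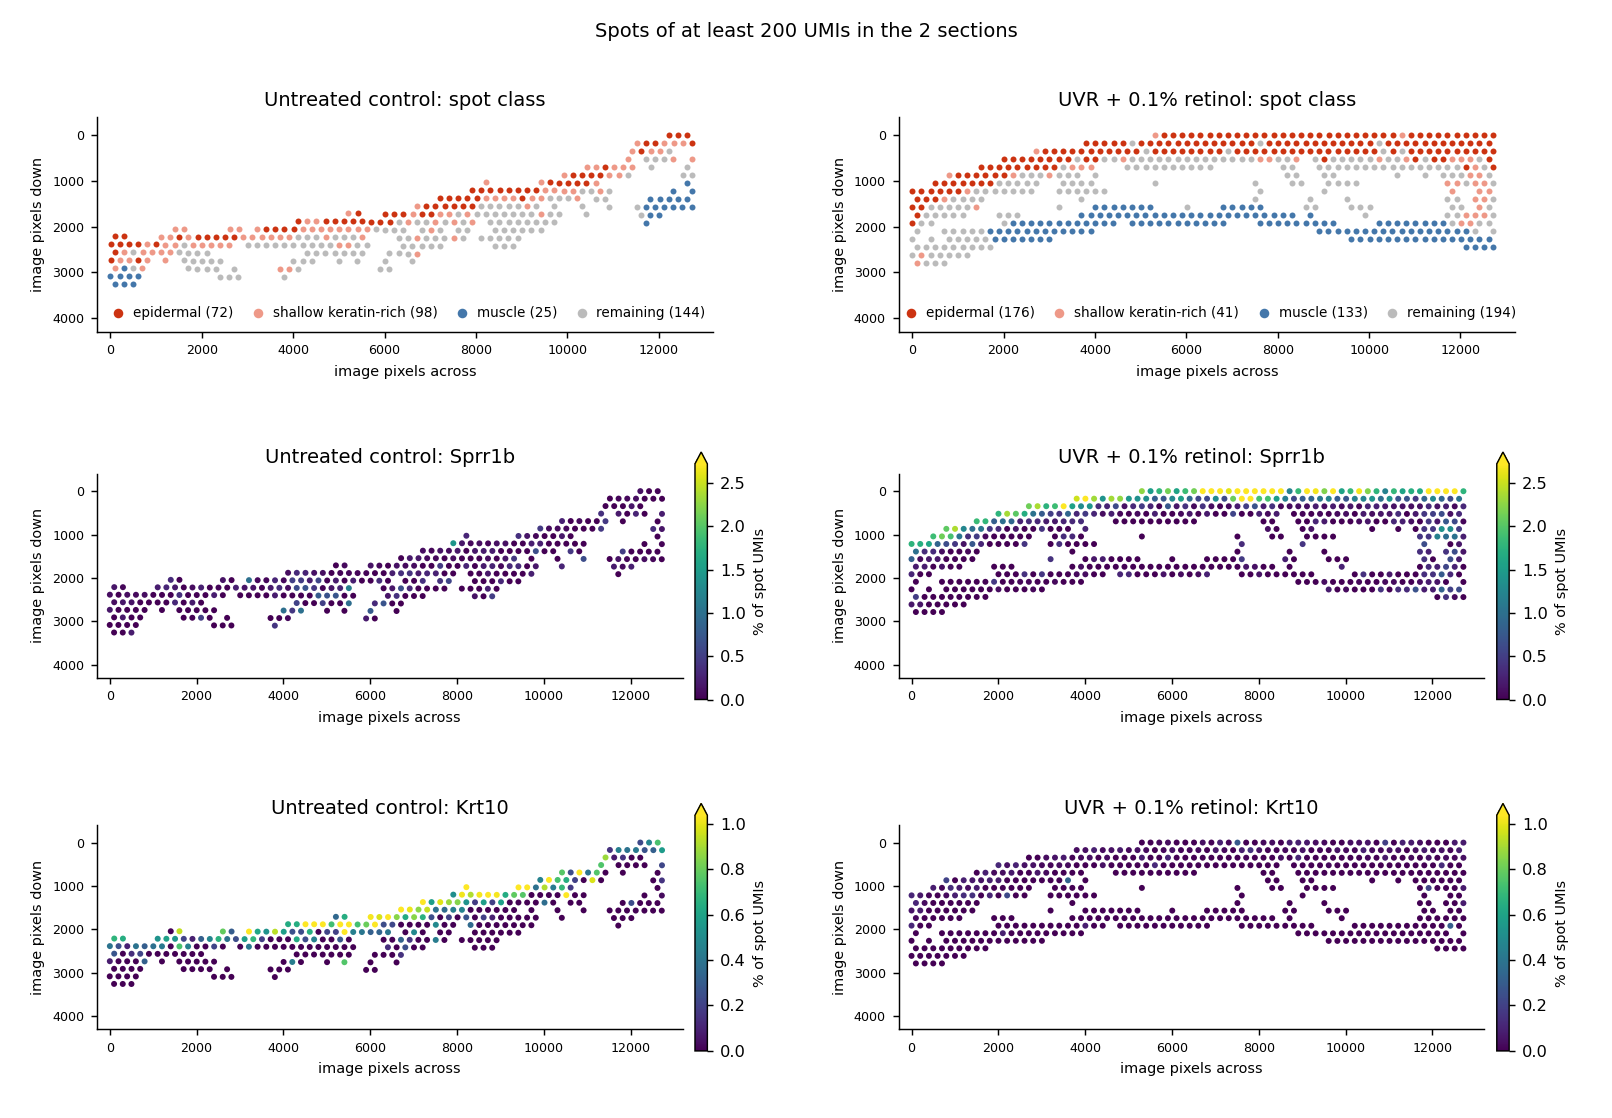
Positions of the spots of at least 200 UMIs in the control section (left column) and the retinol section (right column), in image pixels from each section's own corner; the rows colour spots by class, by the share of their UMIs from Sprr1b and by the share from Krt10 (colour scales end at the 98th percentile of all spots shown). Sprr1b is high along the outer edge of the retinol section, and Krt10 along the outer edge of the control section.

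Over the epidermal spots, 1349 genes had at least 100 UMIs over both sections. Taking 2-fold as the cutoff, 207 (15.3%) were higher in the retinol section and 61 (4.52%) lower, and the median gene had a log2 ratio of 0.22. With ratios centred on that median gene the counts were 153 higher and 107 lower, and with the interval wholly beyond 2-fold they were 71 (5.26%) and 38 (2.82%). The minimum of 100 sums UMIs over sections of unlike depth, so genes high in the deeper retinol epidermis passed it more easily. With a mean CPM of at least 50 as the minimum instead, 221 of 1820 genes were higher and 213 lower. Of the 207 higher genes, 200 could be measured in basal-rich spots, where 107 were again at least 2-fold higher, 80 were higher by less and 13 were lower; 185 could be measured in cornified-rich spots, where the numbers were 142, 42 and 1. Of the 61 lower genes, 47 were at least 2-fold lower in basal-rich spots and 50 in cornified-rich spots. These splits use the same UMIs as the main ratios and are no independent check. Among all 1155 genes of at least 100 UMIs in basal-rich spots, 203 were at least 2-fold higher and 85 lower. In cornified-rich spots the numbers were 64 and 50 of 446 such genes. Control spots held fewer UMIs, but after thinning each epidermal spot to 1000 UMIs the median number of genes per spot was 484 in the retinol section and 473.5 in the control section.

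**Figure D2:**
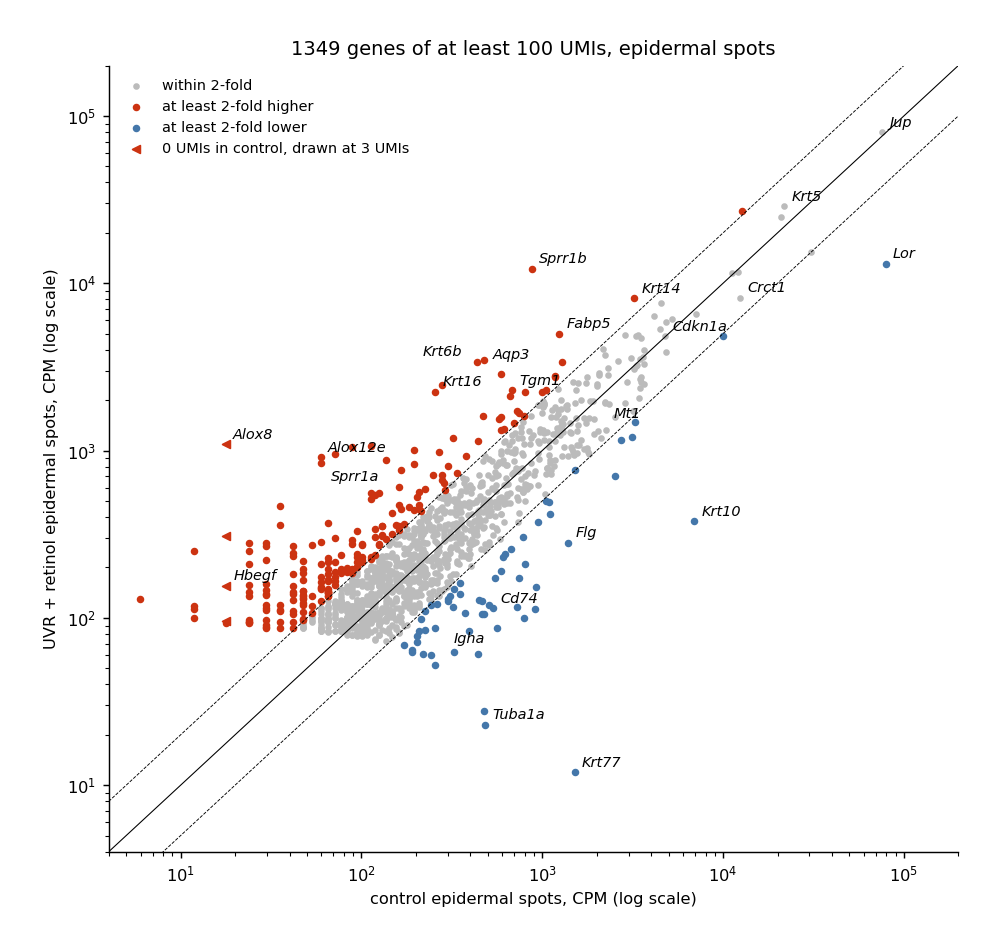
Level of each of 1349 genes in control epidermal spots (horizontal) and retinol epidermal spots (vertical), in CPM on log scales; dashed lines mark 2-fold, and triangles are genes with 0 control UMIs, drawn at 3 UMIs. Sprr1b, Krt6b and Alox8 lie far above the diagonal, Krt10, Krt77 and Lor far below it, and Jup, Krt5 and Cdkn1a near it.

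Stress keratins and small proline-rich genes were higher in the retinol section. Krt16, a partner keratin of activated keratinocytes, stood at 2245 CPM (2437 UMIs) against 255 CPM (43 UMIs), 8.79-fold higher (6.51 to 12.2). Krt6b, a keratin of wounded and hair-bearing epithelium, stood at 3386 CPM against 433 CPM, 7.81-fold higher (6.20 to 9.99). Krt17 was 2.86-fold higher (2.10 to 4.01). Krt6a, a close copy of Krt6b whose probes may not tell the copies apart, had 84 and 3 UMIs, a ratio of 4.34 (1.44 to 21.5). All 4 stress keratins passed 2-fold, against 16.9% higher and 13.1% lower among the 3369 genes of at least 20 UMIs, the minimum for list members. Every count of list members over all epidermal spots below is to be set beside these shares. Among the spots themselves the Krt16 share of UMIs ran from 0 to 0.526% in the retinol section with a median of 0.196%, and from 0 to 0.308% in the control section with a median of 0, so the ranges overlapped. The height of the difference depended on the slice. Within cornified-rich spots Krt6b was 19.1-fold higher (14 to 27.0) and Krt17 5.14-fold higher (3.15 to 8.83), whereas within basal-rich spots Krt6b was 2.44-fold higher (1.74 to 3.56) and Krt17 stood at 719 CPM against 854 CPM, 1.19-fold lower with an interval from 0.748 to 1.80.

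Sprr1b, a small proline-rich protein of the cornified envelope, was among the most abundant transcripts of the retinol epidermis, at 12197 CPM (13240 UMIs) against 879 CPM (148 UMIs), 13.9-fold higher (11.8 to 16.4). The Sprr1b share of a spot's UMIs had a median of 0.933% and a maximum of 4.02% in the retinol section, and a median of 0.063% and a maximum of 1.44% in the control section. The upper quartile of the Sprr1b share in control spots, 0.107%, lay below the lower quartile in retinol spots, 0.312%, although the ranges overlapped. Sprr1a, its neighbour, was at 841 CPM against 59.4 CPM, 14.2-fold higher (7.67 to 29.6). Sprr2j-ps, annotated as a pseudogene of the same cluster, had 104 UMIs against 0, at least 5.38-fold higher; this bound, like every "at least" below, sets 3 UMIs for a section with 0. Of 12 small proline-rich genes on the panel 5 were measured, of which 4 were at least 2-fold higher and none lower. Sprr1b was 6.10-fold higher within basal-rich spots (4.55 to 8.37) and 31.0-fold higher within cornified-rich spots (25.5 to 38.0), and Sprr1a 6.02-fold (2.05 to 29.3) and 34.7-fold (16.7 to 87.2). Inside the retinol section itself, cornified-rich spots held 2.21 times as much Sprr1b as basal-rich spots (2.13 to 2.30). In muscle spots, which should lack it, Sprr1b stood at 551 CPM in the retinol section and 323 CPM in the control section, below the epidermal level of the same section in both.

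The suprabasal keratins Krt77 and Krt10 were much lower in the retinol section. Krt77, a keratin of interfollicular epidermis and sweat ducts, had 13 UMIs (12.0 CPM) against 254 UMIs (1508 CPM), 126-fold lower (72.3 to 240). Krt10, the main acidic keratin of suprabasal cells, had 412 UMIs (380 CPM) against 1164 UMIs (6911 CPM), 18.2-fold lower (16.3 to 20.4). The Krt10 share of a spot's UMIs had a median of 0.0244% and a maximum of 0.282% in the retinol section, and a median of 0.647% in the control section, where the lower quartile, 0.418%, lay above the retinol maximum. The difference held within both slices: Krt10 was 11.4-fold lower in basal-rich spots (9.04 to 14.2) and 13.1-fold lower in cornified-rich spots (10.7 to 16.2). Krt1, which pairs with Krt10, differed far less, at 373 CPM against 617 CPM, 1.65-fold lower (1.32 to 2.06), and 1.09-fold lower within cornified-rich spots with an interval from 0.816 to 1.46. Krt78 was 3.22-fold lower (2.04 to 5.0). Within cornified-rich spots Krt78 was only 1.12-fold lower (0.643 to 1.96). Of 5 suprabasal keratins measured, 4 were at least 2-fold lower, and within cornified-rich spots 2 of 4. Among all genes of at least 100 UMIs in cornified-rich spots, 50 of 446 were at least 2-fold lower. List members needed only 20 UMIs, a minimum at which the lower share over all epidermal spots rose from 4.52% to 13.1%. The choice of epidermal spots used Krt5, Krt14 and Lor, so their own levels are only described: Krt5 stood at 28954 and 21842 CPM in the retinol and control sections, Krt14 at 8166 and 3212 CPM, and Lor at 13059 and 79359 CPM. Krt15, a basal keratin the rule did not use, had 12 UMIs against 26 and was 14-fold lower (6.80 to 30.4).

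**Figure D3:**
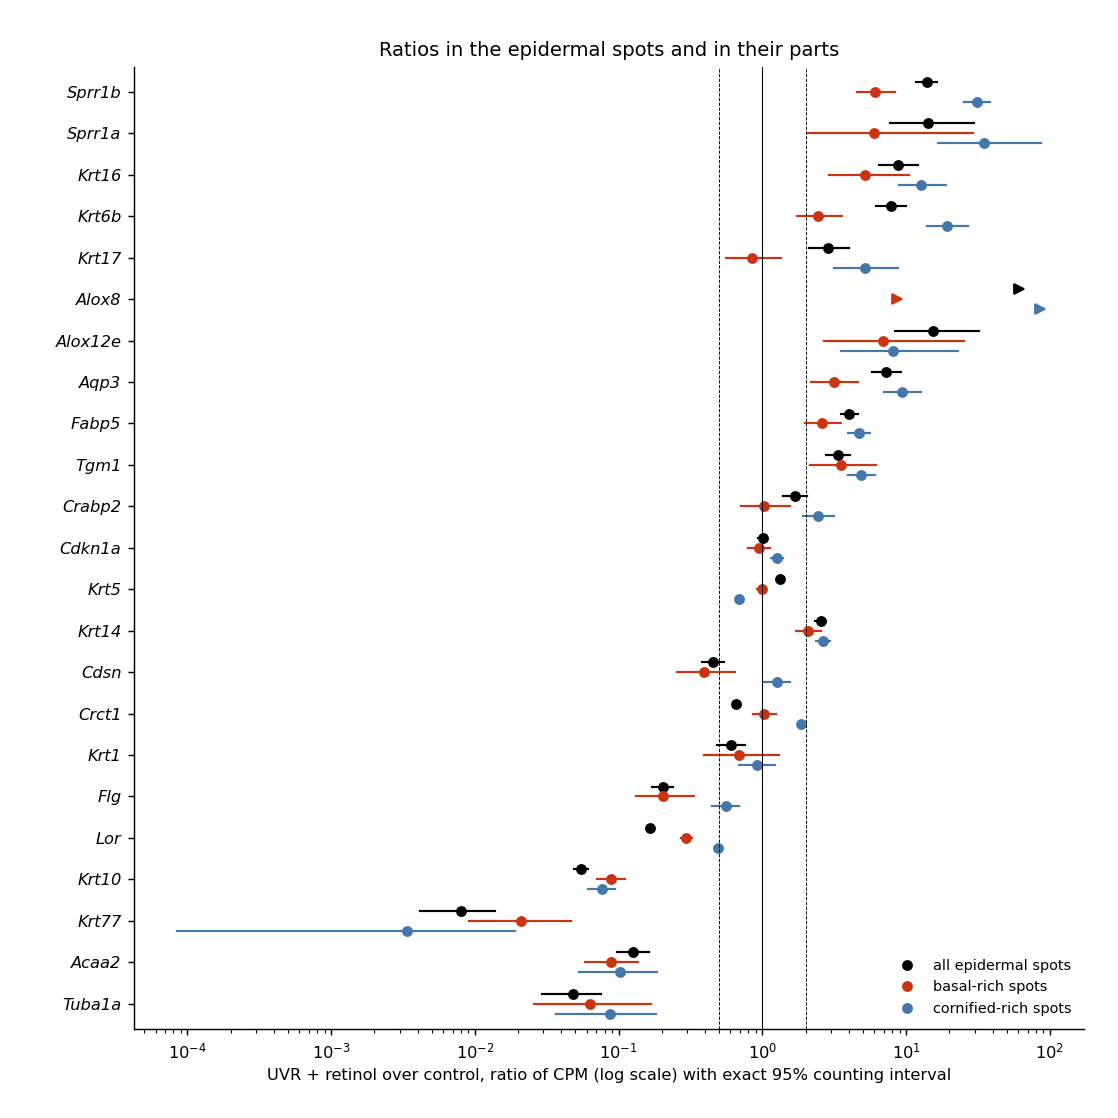
Ratio of CPM, retinol over control section, for 23 genes on a log scale, over all epidermal spots (black), basal-rich spots (red) and cornified-rich spots (blue); bars are exact 95% counting intervals, and triangles are lower bounds for a gene with 0 control UMIs. Sprr1b and Krt6b lie further right in cornified-rich than in basal-rich spots, Krt10 and Krt77 lie left of 1 in both, and Cdsn lies left of 1 in basal-rich spots and right of 1 in cornified-rich spots.

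Genes of the cornified envelope split into groups. The late cornified envelope genes were lower as far as they were measured, 5 of 5 by at least 2-fold out of 13 on the panel; Lce1d, for example, had 21 UMIs against 30 and was 9.21-fold lower (5.10 to 16.9). Flg, the filaggrin precursor of the granular layer, stood at 282 CPM against 1395 CPM, 4.95-fold lower (4.16 to 5.89), but only 1.80-fold lower within cornified-rich spots (1.45 to 2.24). Where the keratin share was at least 10%, Flg was slightly higher in the retinol section, with a log2 ratio of 0.20 on 166 UMIs. That cutoff keeps unlike spots: the highest share of a retinol epidermal spot was 11.8%, while the control median was 9.80%. Sbsn was 5.21-fold lower (3.59 to 7.55) and Krtdap 2.36-fold lower (2.12 to 2.63), the latter by only 1.28-fold in basal-rich (0.889 to 1.78) and 1.73-fold in cornified-rich spots (1.49 to 2.01). Cdsn, corneodesmosin of the corneocyte junctions, was 2.21-fold lower over all epidermal spots (1.86 to 2.62) and 1.26-fold higher within cornified-rich spots (1.03 to 1.54), and Hrnr, 2.88-fold lower over all (1.63 to 4.91), stood at 141 CPM in both sections there. Crct1, a small cornification protein, was 1.52-fold lower over all (1.45 to 1.59) and 1.85-fold higher within cornified-rich spots (1.76 to 1.96). Tgm1, the transglutaminase that cross-links the envelope, was instead higher, at 2299 CPM against 683 CPM, 3.37-fold higher (2.79 to 4.10), and 3.51-fold and 4.87-fold higher in basal-rich and cornified-rich spots. Of 18 envelope and filaggrin-type genes measured, 7 were at least 2-fold lower and 1 was at least 2-fold higher, beside 13.1% and 16.9% of all genes of at least 20 UMIs. The list median was -0.50 on the log2 scale, and within cornified-rich spots the median over 15 genes was 0.34.

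The stretch before the transcription start is shown for 4 genes with large ratios and for Lor, which helped to choose the spots and is shown as the main envelope gene. Sequences are those of RefSeq on GRCm38.p6 (the assembly also called mm10), all on the minus strand, 120 bases that end just before the start in that table, written 5′ to 3′. Capitals mark TGANTCA, where N is any base. These letters take in the core motif of AP-1 factors, which answer stress and growth signals, but that core has C or G at N. The stretch marked in Sprr1b has A there, and the shares below count every base at N.
Sprr1b, chr3:92438780-92438899: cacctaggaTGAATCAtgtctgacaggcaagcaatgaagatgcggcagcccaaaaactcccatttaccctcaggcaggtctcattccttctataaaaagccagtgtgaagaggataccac
Sprr1a, chr3:92485882-92486001: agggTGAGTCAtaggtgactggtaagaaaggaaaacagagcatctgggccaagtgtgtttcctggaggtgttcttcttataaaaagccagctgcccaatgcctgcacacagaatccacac
Lor, chr3:92083143-92083262: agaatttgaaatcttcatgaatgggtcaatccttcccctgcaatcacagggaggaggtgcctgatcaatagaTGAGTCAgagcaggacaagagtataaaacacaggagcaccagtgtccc
Krt10, chr11:99389365-99389484: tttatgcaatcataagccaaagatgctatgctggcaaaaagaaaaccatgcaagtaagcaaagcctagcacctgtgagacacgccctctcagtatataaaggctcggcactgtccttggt
Alox8, chr11:69197844-69197963: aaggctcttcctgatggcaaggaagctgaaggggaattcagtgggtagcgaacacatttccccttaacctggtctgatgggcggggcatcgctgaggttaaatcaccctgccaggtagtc
The genes themselves lie at chr3:92436808-92438817 (Sprr1b), chr3:92483954-92485881 (Sprr1a), chr3:92080271-92083142 (Lor), chr11:99385254-99397449 (Krt10) and chr11:69183885-69197843 (Alox8). The Krt10 window lies inside its span, and the Sprr1b window overlaps the end of its span. Both spans reach further upstream than the start given in the promoter table. Both Sprr1 genes and Lor carried TGANTCA here, and these letters were not in the windows of Krt10 and Alox8. They were also absent from the same windows of Alox12e and Krt77, which were searched but are not printed. Searched on both strands over the 250 bases before the start, TGANTCA was in 6.75% of all 32851 promoters of the table. It was in 4.82% of the 1308 promoters of the genes compared in epidermal spots, in 12 of 194 promoters of the higher genes (6.19%) and in 9 of 57 of the lower genes (15.8%). AGGTCA, the unit that nuclear receptors such as the retinoic acid receptors bind in pairs, was in 14% of all promoters, 10.1% of those compared, 8.76% of the higher and 12.3% of the lower genes. A pair of AGGTCA in the same direction, 5 bases apart, the direct repeat of many retinoic acid response elements, was in 3 of all promoters and in 0 of those compared. A match of letters is a description and not a binding site.

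A pair of lipoxygenases was among the highest ratios of the comparison. Alox8, which oxygenates arachidonic acid at carbon 8 in mouse epidermis, had 1188 UMIs (1094 CPM) in the retinol epidermis and 0 in the control epidermis, where 0 allows up to 17.8 CPM; it was at least 61.4-fold higher. The Alox8 share of a spot's UMIs ranged from 0 to 1.5% in the retinol section with a median of 0.0571%, and 129 of 176 spots held it. Alox12e, the epidermal 12-lipoxygenase, stood at 914 CPM against 59.4 CPM, 15.4-fold higher (8.33 to 32.2). Within basal-rich spots Alox12e was 6.90-fold higher (2.69 to 25.4) and within cornified-rich spots 8.13-fold (3.53 to 23.0), both below the ratio over all epidermal spots. Alox8 and Alox12e were both found in both slices of the retinol epidermis, but in a different balance. Alox8 was 1.89 times higher in cornified-rich than in basal-rich spots (1.66 to 2.16), at 1809 and 955 CPM. Alox12e was 2.97 times higher in basal-rich than in cornified-rich spots (2.29 to 3.92), at 1025 and 345 CPM. Alox12e was also high in the retinol spots that met no class, at 2845 CPM against 244 CPM in the control section. Other lipoxygenases were lower or near 1: Alox12b was 2.81-fold lower (1.49 to 5.08) but had 17 UMIs in each section within cornified-rich spots, a fold lower of 1.25 (0.60 to 2.60), Alox12 8.79-fold lower on 11 and 15 UMIs (3.77 to 21.2), and Aloxe3 had 22 and 5 UMIs with an interval of the fold lower from 0.433 to 3.96.

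Growth factors of the EGF receptor were higher or near 1. Hbegf, the heparin-binding ligand, had 169 UMIs against 0, at least 8.74-fold higher, and Areg, amphiregulin, 240 UMIs against 5, 7.45-fold higher (3.15 to 23.1). Ereg, epiregulin, stood at 53.4 CPM against 47.5 CPM, a ratio of 1.13 (0.535 to 2.73). Erbb3, a receptor of the family, was 1.6-fold higher (1.26 to 2.05). Of 6 members measured out of 12, 3 were at least 2-fold higher and none lower, beside 16.9% and 13.1% of all genes of at least 20 UMIs. For Hbegf the bound rested on the cornified-rich spots (at least 11.7-fold). In basal-rich spots, with 12 control spots, the Hbegf bound was at least 1.24-fold. Areg was 3.68-fold higher within cornified-rich spots on 23 and 5 UMIs, below its ratio over all epidermal spots, and this interval reached below 2-fold. In basal-rich spots Areg had 0 control UMIs and was at least 2.15-fold higher.

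The genes that carry, convert and sense retinoids did not share a direction. Among the carriers, Fabp5, which brings fatty acids and retinoic acid into cells and nuclei, stood at 4994 CPM against 1241 CPM, 4.02-fold higher (3.50 to 4.64); its per-spot share had a median of 0.468% against 0.109%. Crabp2, the carrier that hands retinoic acid to its receptor, was 1.69-fold higher (1.39 to 2.06), 2.44-fold in cornified-rich spots (1.90 to 3.15) and level in basal-rich spots at 1074 and 1039 CPM. Among the enzymes, Dgat1, which can esterify retinol, was 2.00-fold higher (1.5 to 2.73), but 1.56-fold in basal-rich (0.866 to 3.14) and 1.12-fold in cornified-rich spots (0.722 to 1.74), whereas Adh7, an alcohol dehydrogenase able to oxidise retinol, was 9.02-fold lower (5.25 to 15.7) and Dhrs3, which returns retinal to retinol, was 2.63-fold lower on 27 and 11 UMIs (1.18 to 5.47), and 1.56-fold on 4 and 5 UMIs in cornified-rich spots (0.336 to 7.87). Of 22 genes on the panel for synthesis, storage and breakdown, 6 were measured, 1 at least 2-fold higher and 3 lower, beside 16.9% and 13.1% of all genes of at least 20 UMIs. Among the receptors, Rarg, the main retinoic acid receptor of epidermis, was at 1291 and 1211 CPM, a ratio of 1.07 (0.919 to 1.24), and Rxra, its partner, was 2.69-fold lower on 36 and 15 UMIs (1.37 to 5.03). By slice the Rarg ratio was 0.776 in basal-rich (0.570 to 1.08) and 1.49 in cornified-rich spots (1.23 to 1.82).

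Channel, junction and barrier genes split by member. Aqp3, the water and glycerol channel of basal and spinous keratinocytes, stood at 3453 CPM against 475 CPM, 7.27-fold higher (5.83 to 9.19); the ratio was 3.13 in basal-rich spots (2.19 to 4.65) and 9.33 in cornified-rich spots (6.98 to 12.7). Aqp5 had 35 UMIs against 0. Of the connexins, Gjb2, which is raised in wounded epidermis, was 4.58-fold higher (2.29 to 10.7). Jup, plakoglobin of the desmosome and the most abundant transcript of the retinol epidermis, was at 80081 and 75755 CPM, a ratio of 1.06 (1.04 to 1.08), while Dsg1a, the desmoglein of upper layers, was 4.30-fold lower (2.74 to 6.67); 5 of 13 junction genes measured were at least 2-fold lower and none higher. Among all genes of at least 20 UMIs, 16.9% were higher and 13.1% lower, shares to set beside the junction and ceramide counts. Col17a1, which anchors basal cells in the hemidesmosome, was 2.66-fold lower (1.77 to 3.92). Among 11 ceramide genes measured, 4 were at least 2-fold lower, with Fa2h 9.82-fold (5.49 to 17.9) and Elovl1 4.06-fold (2.68 to 6.10), and Cyp4f39 was 3.06-fold higher (1.45 to 7.75); Sptlc2, which starts sphingolipid synthesis, was 1.86-fold higher (1.67 to 2.07). Fa2h is also among the sebaceous gland markers above, and its UMIs lay in 16 of 72 control and 13 of 176 retinol epidermal spots. Cst6, the skin protease inhibitor cystatin M/E, was 11-fold lower (6.79 to 18.3), and Klk6, a secreted kallikrein, 3.08-fold higher (1.77 to 5.86), although level in basal-rich spots at 176 and 186 CPM.

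Most genes of damage lay within 2-fold of the control level, while those of replication differed by slice. Cdkn1a, the p21 inhibitor that p53 induces, stood at 4805 CPM (5216 UMIs) against 4773 CPM (804 UMIs), a ratio of 1.01 (0.934 to 1.09), and the per-spot medians were 0.433% and 0.463%. Phlda3, another p53 target, had a fold lower of 1.05 (0.727 to 1.47), and Cdkn2b was 1.32-fold lower (1.09 to 1.58). Of 13 p53 targets and cell-cycle inhibitors measured, 1 was at least 2-fold higher and none lower, beside the 16.9% and 13.1% of all genes given above. Of the replication genes, Mcm2, a subunit of the replicative helicase, had a fold lower of 1.10 (0.777 to 1.52) and Ube2c a ratio of 1.14 (0.606 to 2.38); Mcm3 was 1.83-fold lower (1.25 to 2.61), and 2.33-fold in basal-rich (1.04 to 4.57) and 3.52-fold in cornified-rich spots (1.72 to 7.77). Of 6 replication and division genes measured, 1 was at least 2-fold lower over all epidermal spots and none higher. Within basal-rich spots 3 of 6 were at least 2-fold lower, with a median of -0.75 on the log2 scale. Among all genes of at least 100 UMIs in basal-rich spots, 85 of 1155 were at least 2-fold lower. List members needed only 20 UMIs, so this share is not a like one. Over all epidermal spots, 4.52% of genes were lower at 100 UMIs and 13.1% at 20. Within basal-rich spots, where dividing cells lie, Mcm2 was at 259 CPM against 594 CPM, 2.30-fold lower (1.29 to 3.81), on 16 control UMIs. Metallothionein Mt1 was 1.15-fold lower (1.03 to 1.29) and Mt2 had a ratio of 1.11 (0.834 to 1.49). The antioxidant genes Gpx1 and Txn1 were higher, the first, a glutathione peroxidase, by 2.32-fold (2.01 to 2.69) and the other, thioredoxin, by 2.49-fold (1.73 to 3.71); in basal-rich spots they were 1.74-fold (1.29 to 2.41) and 1.40-fold higher (0.731 to 3.08).

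Signalling genes outside these groups were among the highest ratios. Elf3, an epithelial ETS factor, had 273 UMIs against 2, a ratio of 21.2 (5.81 to 176), and Hyou1, a chaperone of the endoplasmic reticulum, 141 against 1, a ratio of 21.9 (3.86 to 870). In basal-rich spots Hyou1 had 0 control UMIs and was at least 1.12-fold higher. Map3k14, the kinase of noncanonical NF-kappaB signalling, was 13.2-fold higher (6.01 to 36.0), Fgfbp3, which releases fibroblast growth factors, 13.3-fold (7.61 to 25.9), Otud7a 11.8-fold (7.13 to 21.2), 2310046K23Rik 11.8-fold (4.54 to 43.4) and Smim3 10.5-fold (4.06 to 38.9). Sult5a1, a sulfotransferase, was 9.37-fold higher (3.97 to 29.1) and Fcgbp 2.38-fold (1.54 to 3.84), the latter 1.79-fold in basal-rich (0.757 to 5.54) and 1.69-fold in cornified-rich spots (0.927 to 3.22). Among immediate early genes Junb was 4.5-fold higher (2.92 to 7.32) and Ier3 2.70-fold (2.2 to 3.34; 1.29-fold in basal-rich spots), while Jund was 4.86-fold lower (3.19 to 7.35) and Egr1 3.07-fold lower (1.71 to 5.34; 1.87-fold on 2 control UMIs in basal-rich spots). Wnt10a was 2.19-fold higher (1.79 to 2.70), but 1.54-fold in basal-rich (1.05 to 2.37) and 1.04-fold in cornified-rich spots (0.764 to 1.42), and Wnt3 had a ratio of 1.18 (0.91 to 1.55). Col5a1, a fibrillar collagen, was 10.0-fold higher on 387 and 6 UMIs (4.56 to 27.4), whereas the dermal collagens Col1a1 and Col3a1 had ratios of 1.27 (0.542 to 3.62) and 1.34 (0.795 to 2.41). Within basal-rich spots Col5a1 was 5.46-fold higher on 2 control UMIs, and within cornified-rich spots 3.80-fold on 4 control UMIs. Both ratios lay below the one over all epidermal spots, and both intervals reached below 2-fold.

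Among genes of at least 100 UMIs, the lowest ratios besides those of keratins, Igha, Lor and Sbsn were those of Tuba1a, an alpha tubulin, at 20.9-fold lower (13.2 to 34.1), Syngr1 at 17.2-fold (11.2 to 27.1), Kctd12 at 8.08-fold (6.33 to 10.3), Acaa2, a mitochondrial thiolase of fatty acid oxidation, at 7.94-fold (6.11 to 10.3), Cited4 at 7.23-fold (5.11 to 10.2), Ccdc3 at 6.24-fold (4.82 to 8.07) and Agfg2 at 5.98-fold (4.78 to 7.49). Tuba1a and Acaa2 were lower in both slices, Acaa2 by 11.4-fold in basal-rich and 9.71-fold in cornified-rich spots. Tnxb, tenascin X, was 37.3-fold lower on 14 and 81 UMIs (21.0 to 71.2). Immune transcripts differed by gene. Igha, the IgA heavy chain of plasma cells, was 6.51-fold lower (4.85 to 8.76), but by 7.67-fold in cornified-rich spots and 1.28-fold on 3 control UMIs in basal-rich spots (0.258 to 3.88), and its ratio was 0.449 on the left and 0.0979 on the right image side. Igha UMIs lay in 13 of 72 control epidermal spots and 55 of 176 retinol spots. The Igha share of a spot's UMIs had a median of 0 in both sections and a maximum of 3.70% in control and 0.123% in retinol spots. Cd74, the invariant chain of class II molecules, was 4.68-fold lower (3.53 to 6.19), while H2-Ab1, a class II chain, stood at 283 CPM against 220 CPM, a ratio of 1.29 (0.914 to 1.86). B2m was 3.66-fold lower (2.24 to 5.89), but 1.47-fold on 2 control UMIs in basal-rich spots (0.172 to 5.61), and Tap2 1.43-fold higher (1.14 to 1.82); of 9 antigen presentation genes measured, 4 were at least 2-fold lower and none higher. Among all genes of at least 20 UMIs, 13.1% were lower and 16.9% higher. Cxcl14, a chemokine of resting skin, was 3.77-fold lower (2.34 to 5.98).

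**Figure D4:**
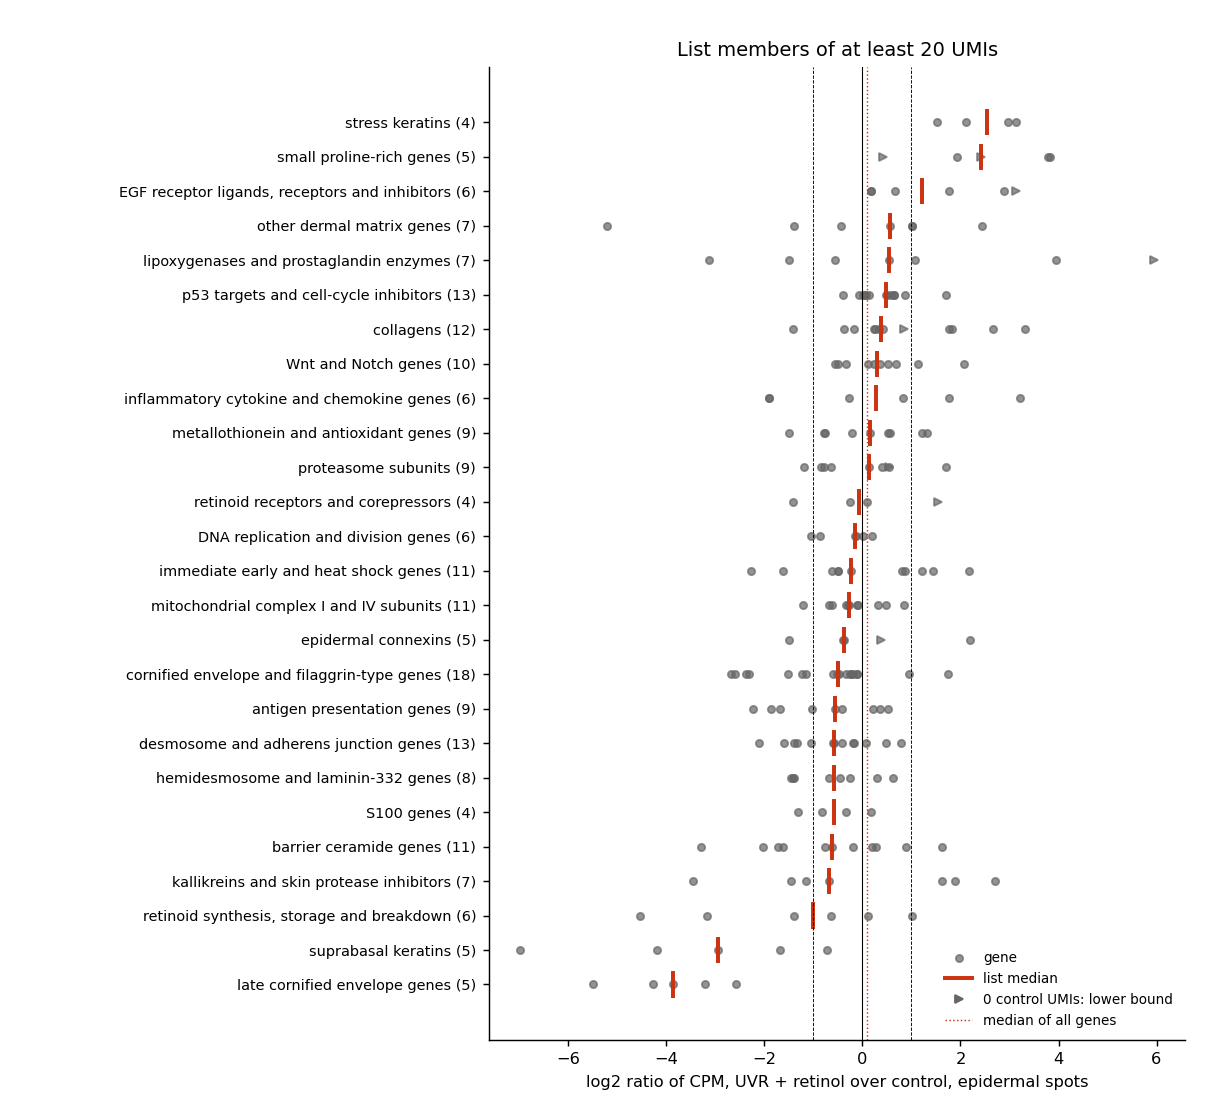
Log2 ratio of CPM, retinol over control section, in epidermal spots for each measured member (points, at least 20 UMIs) of the lists with at least 4 such members, ordered by list median (red bars); triangles are lower bounds, the dotted line is the median of all 3369 genes and dashed lines mark 2-fold. Stress keratins and small proline-rich genes lie at one end, suprabasal keratins and late cornified envelope genes at the other.

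The levels in the other irradiated sections place these differences; the comparisons share the control section, nothing was tested between them, and the UVR section lay on the control's capture area while the HPR section lay on that of retinol. Stress transcripts were highest in the section with UVR alone. Krt6b was at 433 CPM in control, 17489 CPM in UVR, 3386 CPM in retinol and 4993 CPM in HPR epidermal spots, and Sprr1b at 879, 28305, 12197 and 15154 CPM in the same order. Other genes were highest with retinol. Alox8 was at 0 CPM in control, 56.3 CPM in UVR, 1094 CPM in retinol and 557 CPM in HPR epidermis, Alox12e at 59.4, 165, 914 and 319 CPM, and Fcgbp at 131, 13.2, 310 and 90.7 CPM. The suprabasal keratins Krt10 and Krt77 were highest in the control section: Krt10 was at 6911, 668, 380 and 457 CPM and Krt77 at 1508, 1.89, 12.0 and 4.22 CPM. Mcm2 was highest in the UVR section over all epidermal spots, at 255, 663, 232 and 246 CPM. Within basal-rich spots Mcm2 was at 594, 742, 259 and 302 CPM, and within cornified-rich spots at 191, 151, 96.1 and 93.4 CPM. Basal-rich spots made up 16.7%, 86.6%, 76.7% and 70.7% of the epidermal spots in the same order. For the oxidase Duox1 the UVR section stood apart, at 47.5, 284, 48.8 and 88.6 CPM. Tppp3 was at 107 CPM in control and 132 CPM in UVR epidermis, and at 10.1 CPM with retinol and 26.4 CPM with HPR.

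**Figure D5:**
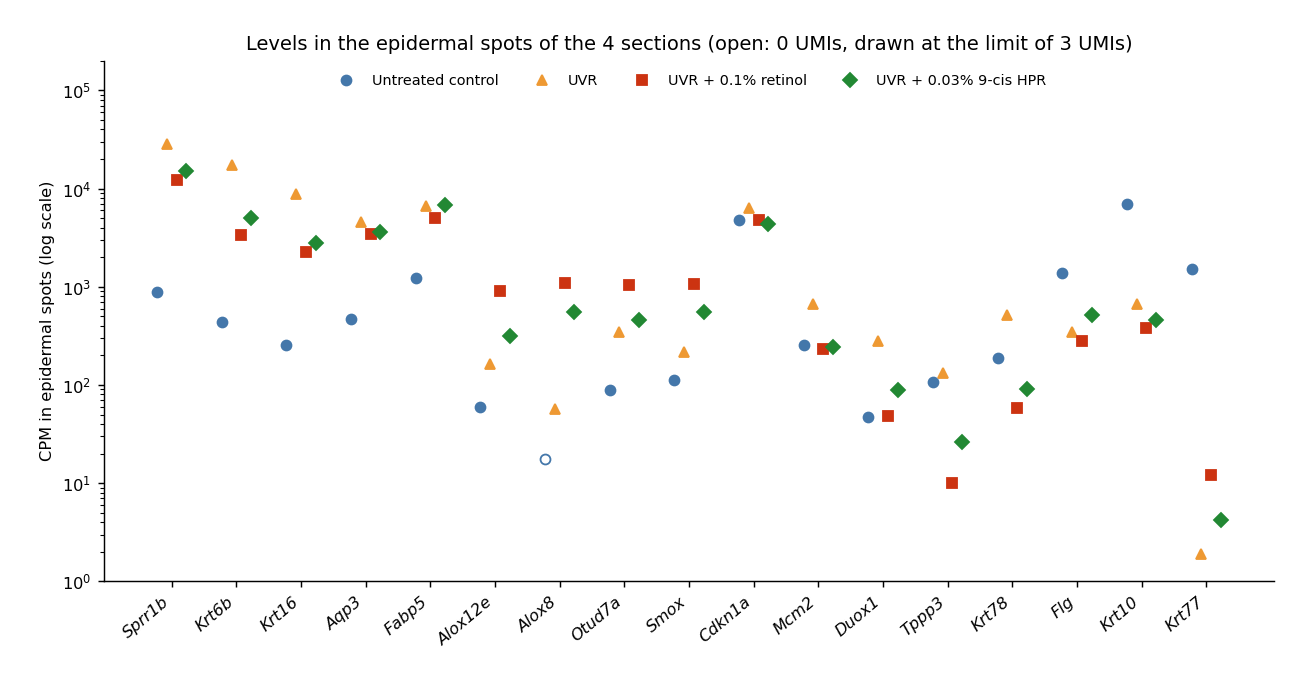
Level of 17 genes in the epidermal spots of the 4 sections, in CPM on a log scale, 1 section per group with no error bar; open symbols are genes with 0 UMIs, drawn at the limit of 3 UMIs. Krt6b and Sprr1b are highest in the UVR section, Alox8 and Alox12e in the retinol section, and Krt10 and Krt77 in the control section.

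Summed over whole sections (1414976 UMIs against 326095), 1804 genes had at least 100 UMIs; at the same cutoff 214 (11.9%) were higher in the retinol section and 145 (8.04%) lower, with 173 and 172 when centred on the median gene, whose log2 ratio was 0.10. With a mean CPM of at least 50 as the minimum, 197 of 2031 genes were higher and 266 lower. The highest ratios repeated the epidermal ones, led by Alox8 with 1301 UMIs against 2, a ratio of 150 (41.4 to 1239). Genes that reached the 12 highest only here were Sprr2j-ps with 122 UMIs against 1, Stfa3, a stefin, at 14.8-fold (6.29 to 46.0), Coil, coilin of nuclear Cajal bodies, at 12.0-fold (5.07 to 37.2), Smox, spermine oxidase, at 11.9-fold (8.06 to 18.5), Areg at 9.87-fold (4.47 to 27.1) and Col13a1 with 110 UMIs against 3. Krt77, Krt10, Tuba1a and Cited4 were again among the 12 lowest, joined here by Adh7, 8.04-fold lower (5.43 to 12.1). Paqr7, a progestin receptor, was 34.6-fold lower (24.4 to 50.4) and Cst6 21.6-fold lower (15.6 to 30.5). Tchh, trichohyalin of the hair root sheath, was 41.6-fold lower (22.9 to 82.8), but nearly all of this came from 1 side: the ratio was 0.676 on the left and 0.0125 on the right image side. Of 14 barrier ceramide genes measured, 6 were at least 2-fold lower and 1 higher. Fa2h, a fatty acid hydroxylase counted in both the ceramide and the sebaceous lists, was lower by 6.60-fold (5.38 to 8.12). Scd1, a desaturase of sebaceous glands, was lower by 5.24-fold (3.99 to 6.89). All 5 sebaceous markers measured were at least 2-fold lower, against 11.7% higher and 18.9% lower among the 4599 genes of at least 20 UMIs. Of 13 collagens measured, 4 were at least 2-fold lower and 1 higher, and of 14 other dermal matrix genes 7 were lower and none higher. Col1a1 was lower by 4.17-fold (3.13 to 5.55), Col1a2 by 2.07-fold (1.82 to 2.36), Col3a1 by 1.62-fold (1.32 to 1.99) and Tnxb, tenascin X, by 8.64-fold (6.96 to 10.8). These sums mix the spot classes, which differ in share, and the spots of no class are not dermis alone: 46 of the 194 such retinol spots had at least 1000 UMIs and held 67.3% of that class's UMIs, against 13 of 144 spots and 24.1% in the control section.

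Muscle spots came from 133 positions in the retinol section (114344 UMIs) and 25 in the control section (40216 UMIs). Of 193 genes with at least 100 UMIs there, 26 (13.5%) passed 2-fold upwards and 6 (3.11%) downwards, and the median gene had a log2 ratio of 0.45. Acta1, Myh4 and Myh2 were among the 7 genes that chose these spots, so their levels here are a description. Of the 10 skeletal muscle markers, all measured, 1 was at least 2-fold higher and 3 were lower. Mb, myoglobin, was higher in the retinol section by 9.60-fold (4.57 to 24.2), Csrp3, a muscle LIM protein, by 7.67-fold (4.09 to 16.2). Myh2, a fast oxidative myosin, had 92 UMIs against 4, a ratio of 8.09 (3.05 to 30.3), and Myh4, a fast glycolytic myosin, stood at 46264 and 123135 CPM. Pvalb, parvalbumin of fast fibres, was 4.11-fold lower (3.59 to 4.71). Acta1, skeletal actin, was nearly level, at 32752 and 29466 CPM. Over whole sections Pvalb was 6.26-fold lower (5.48 to 7.17), with ratios of 0.304 on the left and 0.0879 on the right image side.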

How the data were processed

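Libraries were made with a probe-based Visium kit on fresh-frozen sections, per the labels' protocols, and Space Ranger 2.0.0, Seurat 4.1.0 and the build mm10 are named in the submitters' processing notes. The deposited matrices hold raw UMI counts for 19465 genes in spots over tissue; 430 spot barcodes occur on both capture areas. Sections were split at image rows 4650 (retinol area) and 7200 (control area). UMIs were summed per section and spot class; muscle spots had at least 5% of UMIs from 7 muscle genes. Ratios of CPM carry exact binomial intervals, and a section with 0 UMIs was set to 3. Genes needed 100 UMIs over both sections, list members 20. Named genes were the 12 highest and 12 lowest ratios with the interval beyond 2-fold and 1 direction on both image sides, the 2 members at each end of a list with at least 50 UMIs, and a fixed set; a few of these are not reported here. The members and lists were chosen with earlier results of these data known. Scripts (Python 3.11.15, numpy 2.4.6, scipy 1.17.1, pandas 2.3.3) were tested on simulated data. Alternatives changed the section reading, minimums, scaling and spot choice.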

Additional observations from a re-analysis of the deposited data

Results flagged for a closer look

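Of 453 genes compared in both epidermal spots and the spots of no class, 2 were at least 2-fold apart in opposite directions. Lpgat1, an acyltransferase of phospholipid synthesis, had a retinol over control ratio of 4.13 in epidermal spots and 0.411 in the spots of no class. Txn1, thioredoxin, had ratios of 2.49 and 0.430. Of 119 genes compared in both epidermal and muscle spots, 1 did so: Hspb1, a small heat shock protein, with 0.288 in epidermal spots and 2.15 in muscle spots. These differences between spot classes were not tested.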

How the results depend on the processing

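Of the choices tried, the reading of upper and lower mattered most. Read from the spot grid in place of the image, the epidermal counts became 61 higher and 246 lower and the whole-section counts 96 and 259, and 43 values of named genes and 12 list medians that were at least 2-fold changed sign. On the log2 scale, genes in epidermal spots were then 2310046K23Rik -0.49, Agfg2 0.59, Aqp3 -0.31, Areg -0.78, B2m 1.06, Ccdc3 1.01, Cd74 2.2, Cyp4f39 -0.91, Egr1 0.89, Flg 0.57, Gjb2 -1.18, Gpx1 -0.40, Hrnr 1.81, Igha 0.17, Kctd12 0.25, Krt14 -1.25, Krt16 -1.64, Krt17 -0.51, Krt6a -0.35, Krt6b -1.81, Krtdap 0.62, Lce1a2 0.22, Lce1d 0.71, Lor 0.44, Lpgat1 -0.73, Smim3 -0.24, Sprr1a -1.37, Sprr1b -0.90, Sprr2j-ps -2.74, Tgm1 -0.026, Tnxb 0.21, Txn1 -0.71, and over whole sections Areg -0.75, Cd74 1.94, Col1a1 1.68, Col1a2 1.75, Igha 0.53, Scd1 0.15, Sprr1b -0.96, Sprr2j-ps -2.92, Tchh 0.84, Tnxb 0.11, Tuba1a 0.14. List medians were then, in epidermal spots, stress keratins at -1.08, small proline-rich genes at -1.57, late cornified envelope genes at 0.49, retinoid carriers and transport at -0.36, EGF receptor ligands with receptors and inhibitors at -0.50, aquaporins at -0.31, and over whole sections stress keratins at -1.08, small proline-rich genes at -1.62, late cornified envelope genes at 0.51, EGF receptor ligands with receptors and inhibitors at -0.59, other dermal matrix genes at 0.83, matrix proteases and inhibitors at 0.59.

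Among the other alternatives, 1780 of 2123 values of named genes stayed within their counting interval, 334 left it and 9 that were at least 2-fold changed sign; of 955 list medians 809 moved by at most 0.5 on the log2 scale, 145 by more, and 1 that was at least 2-fold changed sign. At a keratin share of at least 10% the log2 ratios of Cdsn, Flg and Hrnr were 0.82, 0.20 and 0.11 and the list of retinoid synthesis, storage and breakdown genes stood at 0.30 on the 1 member still measured. In basal-rich spots Klk6 was -0.076, Krt17 -0.25, Krt6a -0.031 and Lpgat1 -0.20, and in cornified-rich spots Cdsn was 0.34 and Hrnr 0.000104.

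The counts of 207 higher and 61 lower epidermal genes became 568 and 441 with at least 20 UMIs, 63 and 13 with at least 500, 2651 and 2693 with a pseudocount of 1 CPM and no minimum, 71 and 38 with the interval beyond 2-fold, 66 and 32 after thinning to equal totals, and 23 and 31 at a keratin share of at least 10%. Higher genes numbered 101 at a share of at least 5% and 64 in cornified-rich spots. Lower genes numbered 213 with a mean CPM of at least 50 (beside 221 higher), 107 when centred, and 40 on either image side. The whole-section counts of 214 and 145 became 539 and 867, 68 and 29, 1925 and 3675, 72 and 75, and 110 and 85 under the first 5 of these in turn. Lower genes over whole sections numbered 266 with the mean CPM (beside 197 higher), 69 on the left side and 96 with layers weighted alike. No paired analysis was possible because each group had 1 section, and for the same reason no replicate could be left out. The spot minimums of 0 and 500 UMIs were not run for epidermal spots, which have at least 1000. Precision is limited by the 168438 UMIs of the control epidermis, and by its 26947 UMIs in basal-rich spots.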
